A study of Saccharomyces cerevisiae with 14 samples.

Results

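A set of 10 *Saccharomyces cerevisiae* genes that encode heat shock proteins outside the Hsp70 class was followed through the first 120 min after cultures were given 5-hydroxymethylfurfural (HMF), an aldehyde inhibitor formed when plant biomass is broken down to sugars. They were taken by systematic name as a chaperone set, with no threshold on their values, and are 10 of the 6387 open reading frames on the array. *HSP26* (YBR072W) and *HSP42* (YDR171W) encode small heat shock proteins. *HSP104* (YLL026W) and *HSP78* (YDR258C) encode the Hsp100 proteins of the cytosol and of the mitochondrial matrix. *HSP82* (YPL240C) and *HSC82* (YMR186W) encode the cytosolic Hsp90 pair. *HSP60* (YLR259C) and *HSP10* (YOR020C) encode the mitochondrial chaperonin and its lid. *HSP12* (YFL014W) and *HSP30* (YCR021C) encode membrane-associated stress proteins that belong to none of these folding machines.

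Small heat shock proteins hold unfolding proteins in a state from which they can be rescued, and Hsp100 proteins pull aggregated proteins apart with the help of Hsp70. Hsp90 matures a set of client proteins such as kinases and transcription factors, and the chaperonin encloses newly imported mitochondrial proteins while they fold. In yeast most of these genes are driven by heat shock factor, Hsf1, and several also or mainly by the general stress factors Msn2 and Msn4.

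The tested cultures of strain NRRL Y-12632, grown in synthetic complete medium, received HMF to 30 mM, and the control cultures were grown alike with no HMF. Of the 14 two-color arrays, 7 held RNA of HMF cultures and 7 RNA of control cultures, with 2 biological replicates for each group at 10, 30 and 60 min and single at 120 min. Test RNA carried Cy3 and untreated RNA of 0 min carried Cy5, so that every value is a log2 ratio to 0 min, and values at 120 min have no replicate. With the dyes assigned alike on all arrays, a dye effect on a gene cannot be told from a change since 0 min. A dye effect common to all arrays would not enter HMF minus control. RNA came from whole cultures, in which more transcript in each cell and more cells with the transcript cannot be told apart. The arrays give ratios, not amounts, and levels of different genes cannot be set against each other.

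Each slide had been scaled on a spike-in, which leaves the level of all genes free, so every array was centred here on the median of its 6387 values. Before centring, array medians lay between -0.32 and 0.56 with HMF and between -0.18 and 1.29 in control, and HMF minus control had a median over the genes of -0.66, -0.37, 0.26 and 0.014 at 10, 30, 60 and 120 min and of -0.19 in the mean of these times. Differences below are HMF minus control in log2 on the centred scale, that is, relative to the typical gene, with moderated standard errors (SE). P values are from limma with Benjamini-Hochberg adjustment over all 6387 genes, and a gene passed at an adjusted p of at most 0.05.

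In the mean of the 4 times, *HSP26* and *HSP10* were higher with HMF, and the other 8 chaperone genes did not pass. That is 2 of 10 called higher, where 5.09% of all genes were called higher and 11.3% were called in either direction. Over the 10 genes the mean difference had a median of 0.12, against 0.00080 over all genes, and 7 of the 10 estimates lay above 0, as 50.1% of all did. Uncentred, its median was -0.068 with 4 of the 10 above 0, against -0.19 over all genes with 1866 of 6387 above 0. At single times none of the 10 passed, and on the uncentred scale neither *HSP26* nor *HSP10* passed in the mean. The plot of the values on each array shows a high point at 10 min with HMF in most panels, an offset above control in *HSP10*, and large gaps between replicates in *HSP78*.

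**Figure D1:**
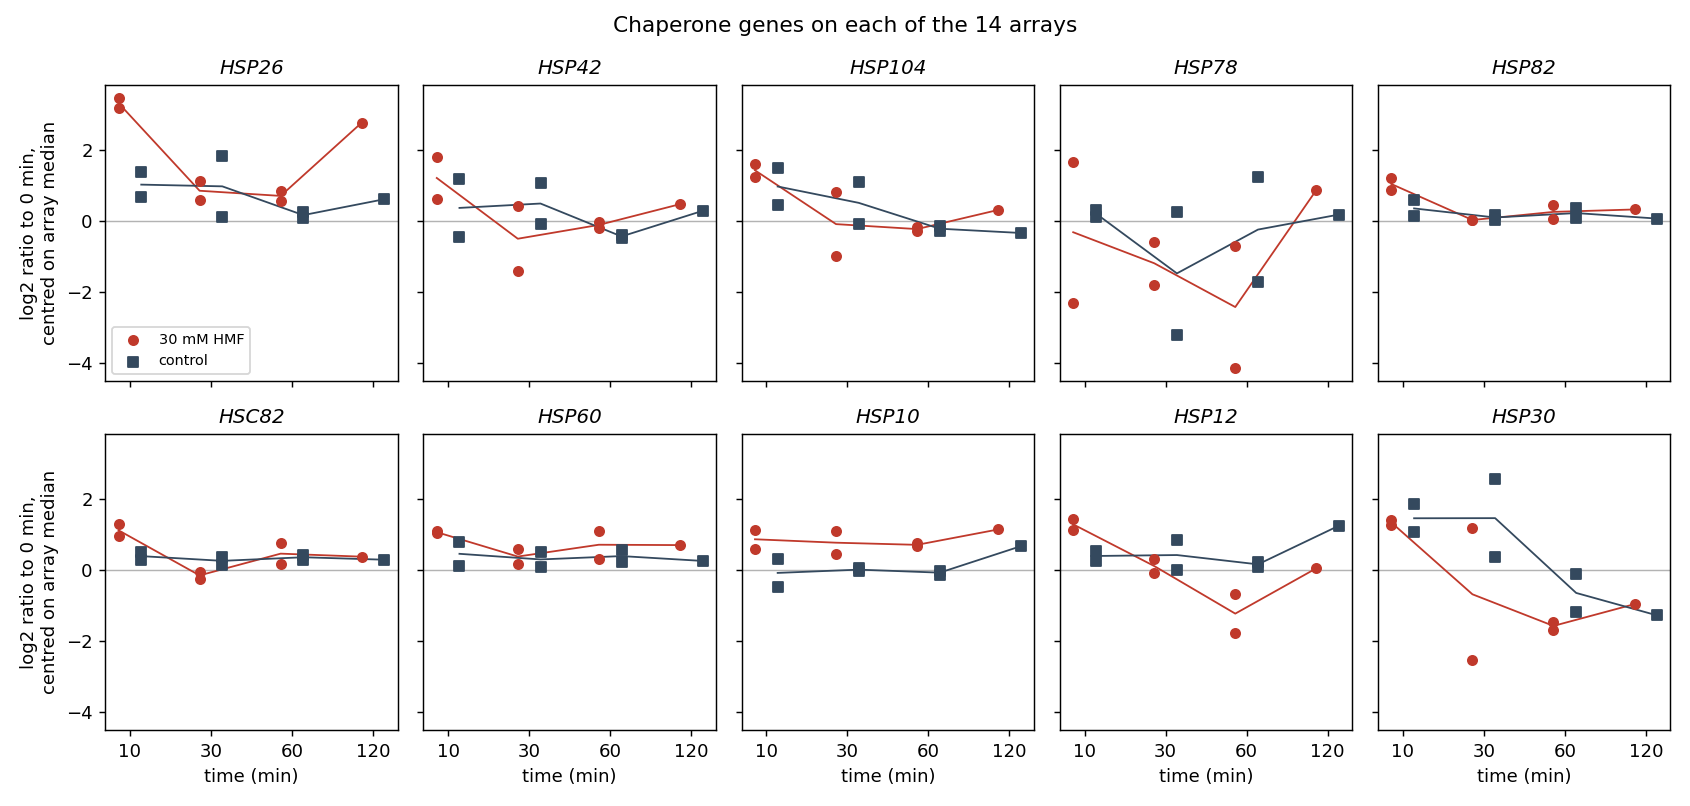
Log2 ratio to 0 min (vertical axis, centred on the array median) against time in min for the 10 chaperone genes, with each array as a point, 30 mM HMF as circles on the left and control as squares on the right of each time, and lines through the group means. HSP26 reached 3.45 and 3.18 with HMF at 10 min, above every control array, and HSP10 lay above control with HMF at each of the 4 times.

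*HSP26* had the largest difference of the 10. With HMF its centred log2 ratios were 3.45 and 3.18 at 10 min, then 1.12 and 0.58 at 30 min, later 0.83 and 0.58 at 60 min and 2.76 at 120 min. In control they were 1.37 and 0.68 at 10 min, then 1.83 and 0.12 at 30 min, later 0.26 and 0.07 at 60 min and 0.61 at 120 min. Both HMF arrays at 10 min and the HMF array at 120 min lay above all 7 control arrays, the groups overlapped at 30 min, and they were apart by less at 60 min. Relative to 0 min the group mean on the centred scale was 9.94-fold, 1.80-fold, 1.63-fold and 6.79-fold with HMF at 10, 30, 60 and 120 min, and 2.03-fold, 1.96-fold, 1.12-fold and 1.53-fold in control. The control culture thus also stood above 0 min at 10 min, and at 30 min mostly by replicate 1 (1.83 against 0.12). Uncentred, the control log2 ratios were 1.65 and 1.97 at 10 min and 1.95 and 0.76 at 30 min.

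Averaged over the times, *HSP26* was 1.21 ± 0.28 (SE) higher with HMF, which is 2.32-fold (adjusted p = 0.027), with HMF above control in 6 of 7 same-numbered pairs, or 5 of 7 uncentred. At 10 min the difference was 2.29 ± 0.51, or 4.89-fold, and did not pass (adjusted p = 0.0551). With replicate number as a block it passed (adjusted p = 0.0189 with one block over all times, 0.0373 with separate blocks for the times). The adjusted p was 0.198 uncentred, where the difference was 1.62, and 0.213 after quantile normalization. It was 0.103 in an unmoderated two-factor test read at 10 min. The methods name a 2-way ANOVA but state no contrast at 10 min and no adjustment. At 30 min the difference was -0.12 ± 0.51, at 60 min 0.54 ± 0.51, and at 120 min 2.15 ± 0.72 from single arrays (adjusted p = 0.564). The difference at 10 min exceeded that at 30 min by 2.41 ± 0.72 (unadjusted p = 0.00892, adjusted p = 0.517), so a change of the response with time was not established over all genes.

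The call of *HSP26* in the mean was close to the limit. On the uncentred scale the mean difference was 1.02 (adjusted p = 0.129), and without the 120 min arrays 0.90 (adjusted p = 0.0858). Leaving out one array ended it for HMF replicate 1 at 10 min (adjusted p = 0.0543), 30 min (0.0577) and 60 min (0.0632), HMF replicate 2 at 60 min (0.0516), control replicate 2 at 10 min (0.0555) and control replicates 1 and 2 at 60 min (0.0574 and 0.0673), with differences of 1.13 to 1.25. At 10 min the adjusted p with one array left out ran from 0.0316 to 0.219. It met the limit without control replicate 1 or 2 at 30 min (0.0316 each), and was 0.191 and 0.16 without HMF replicates 1 and 2 at 10 min and 0.219 without control replicate 2 at 10 min.

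*HSP42*, the other small heat shock protein gene, and *HSP104*, the disaggregase gene needed for survival of severe heat, followed each other on the arrays. With HMF *HSP42* had 1.79 and 0.63 at 10 min, then 0.42 and -1.41 at 30 min, later -0.03 and -0.19 at 60 min and 0.47 at 120 min, against 1.18 and -0.44, 1.08 and -0.09, -0.38 and -0.49, and 0.29 in control. *HSP104* had 1.62 and 1.23, 0.82 and -0.99, -0.29 and -0.16, and 0.31 with HMF at the same times, against 1.49 and 0.45, 1.10 and -0.08, -0.29 and -0.14, and -0.34 in control. In both genes replicate 1 was above replicate 2 at 10 and 30 min in both treatments, and at these times the treatments overlapped. Between arrays of the same number, HMF minus control was 0.61 and 1.07 at 10 min and -0.66 and -1.32 at 30 min in *HSP42*. In *HSP104* it was 0.13 and 0.78 at 10 min and -0.28 and -0.92 at 30 min. On the centred scale both pairs thus had one sign at each of these times in both genes. Uncentred, the pairs at 10 min differed in sign, with 0.88 and -0.54 in *HSP42* and 0.40 and -0.83 in *HSP104*. At 30 min they stayed below 0 uncentred, with -0.72 and -1.95 in *HSP42* and -0.34 and -1.54 in *HSP104*. The mean differences were 0.091 ± 0.41 for *HSP42* (adjusted p = 0.927, 95% interval -0.85 to 1.03) and 0.12 ± 0.34 for *HSP104* (adjusted p = 0.875, interval -0.66 to 0.91). Their root mean square difference over the 14 arrays was 0.40, the fourth smallest of the 45 pairs among the 10 genes. On the centred scale they stood at 2.31-fold and 2.68-fold of 0 min with HMF at 10 min, and in control *HSP42* was at 1.29-fold and *HSP104* at 1.96-fold. This excess with HMF depended on the centring. Uncentred, the log2 ratios of *HSP42* at 10 min were 2.35 and 0.31 with HMF and 1.47 and 0.85 in control. Those of *HSP104* were 2.18 and 0.92 with HMF and 1.77 and 1.75 in control.

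*HSP82* and *HSC82*, the inducible and the constitutive Hsp90 gene, gave nearly the same values on every array. They are near-identical paralogs, and how far a probe of one also took up RNA of the other cannot be told from the ratios. For *HSP82* the log2 ratios with HMF were 1.20 and 0.88 at 10 min, then 0.02 and 0.04 at 30 min, later 0.06 and 0.45 at 60 min and 0.32 at 120 min, against 0.13 and 0.58, 0.04 and 0.16, 0.09 and 0.36, and 0.07 in control. For *HSC82* they were 1.28 and 0.94, -0.26 and -0.05, 0.16 and 0.74, and 0.37 with HMF, against 0.27 and 0.50, 0.14 and 0.36, 0.28 and 0.43, and 0.28 in control. In both, the HMF arrays lay above the control arrays at 10 min, and *HSC82* also lay below them at 30 min. The 10 min difference was 0.69 ± 0.25 in *HSP82* (unadjusted p = 0.0228, adjusted p = 0.194) and 0.73 ± 0.26 in *HSC82* (unadjusted p = 0.0207, adjusted p = 0.184). On the uncentred scale these differences were 0.018 and 0.058. Their same-numbered pairs were then of opposite sign, 1.35 and -1.31 in *HSP82* and 1.29 and -1.17 in *HSC82*. The mean differences were 0.23 ± 0.14 for *HSP82* (adjusted p = 0.365) and 0.13 ± 0.14 for *HSC82* (adjusted p = 0.654). The root mean square difference between the 2 genes was 0.16, the smallest of the 45 pairs, and the largest gap on one array was 0.29.

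*HSP10*, which encodes the lid of the mitochondrial chaperonin, was above control at each time on the centred scale. Its log2 ratios with HMF were 0.59 and 1.12 at 10 min, then 0.44 and 1.08 at 30 min, later 0.74 and 0.66 at 60 min and 1.13 at 120 min. In control they were -0.49 and 0.31, -0.03 and 0.04, -0.02 and -0.14, and 0.66 at these times. HMF lay above control in 7 of 7 same-numbered pairs (6 of 7 uncentred), and at 10, 30 and 60 min the groups did not overlap, whereas uncentred this held at 60 min alone. The differences were 0.95, 0.76, 0.78 and 0.47 at 10, 30, 60 and 120 min, of which none passed alone (adjusted p = 0.178, 0.318, 0.390 and 0.979), and their mean was 0.74 ± 0.18, or 1.67-fold (adjusted p = 0.0355). The interaction of treatment and time had an F of 0.23 (unadjusted p = 0.872). Uncentred, the differences were 0.28, 0.41, 1.02 and 0.47 at these times.

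*HSP60*, the chaperonin itself, had smaller differences on the centred scale, all above 0. Its log2 ratios were 1.02 and 1.09 at 10 min, then 0.17 and 0.58 at 30 min, later 0.31 and 1.10 at 60 min and 0.69 at 120 min with HMF, against 0.11 and 0.79, 0.08 and 0.50, 0.21 and 0.56, and 0.25 in control. HMF lay above control in 7 of 7 pairs, but the groups overlapped at 30 and 60 min. Uncentred, HMF was above control in 5 of 7 pairs, with differences of -0.060 at 10 min and -0.26 at 30 min. The mean difference was 0.36 ± 0.19 and did not pass (adjusted p = 0.296, 95% interval -0.080 to 0.81).

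For *HSP10* the mean difference was 0.55 on the uncentred scale (adjusted p = 0.538) and 0.60 after quantile normalization (adjusted p = 0.083). The call ended without HMF replicate 2 at 10 min (adjusted p = 0.0670), HMF replicate 2 at 30 min (0.0618), HMF replicate 1 or 2 at 60 min (0.0751 and 0.0689), control replicate 1 or 2 at 30 min (0.0705 and 0.0696) and control replicate 1 or 2 at 60 min (0.0751 and 0.0852), with differences of 0.66 to 0.75.

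*HSP78*, the Hsp100 gene whose product works in the mitochondrial matrix, could not be read at this replication. Its log2 ratios were -2.30 and 1.67 at 10 min, then -1.79 and -0.58 at 30 min, later -0.71 and -4.13 at 60 min and 0.87 at 120 min with HMF, against 0.31 and 0.11, 0.26 and -3.21, -1.71 and 1.23, and 0.18 in control. Replicates of a group lay up to 3.98 apart with HMF and up to 3.47 apart in control, which leaves the mean difference at -0.43 ± 0.96 (adjusted p = 0.841), with a 95% interval of -2.62 to 1.76. Its residual SD of 2.04 was the 12th highest of all 6387 genes.

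*HSP12*, which encodes a small protein that binds and stiffens membranes under stress and is a common reporter of Msn2 and Msn4, was above control early and below it later. With HMF it had 1.11 and 1.44 at 10 min, then 0.31 and -0.10 at 30 min, later -0.69 and -1.77 at 60 min and 0.04 at 120 min. In control it had 0.54 and 0.24, 0.82 and 0.01, 0.23 and 0.07, and 1.24. Both HMF arrays lay above both control arrays at 10 min and below both at 60 min, and HMF was below control in all 5 same-numbered pairs after 10 min. The difference was 0.89 ± 0.40 at 10 min (adjusted p = 0.296), -0.31 ± 0.40 at 30 min (adjusted p = 0.780), -1.38 ± 0.40 at 60 min (unadjusted p = 0.00767, adjusted p = 0.178) and -1.20 ± 0.56 at 120 min (adjusted p = 0.701). The interaction with time had an F of 6.19, the largest of the 10 genes, and did not pass over all genes (unadjusted p = 0.0158, adjusted p = 0.900). Arrays apart in opposite directions at a pair of the replicated times were found in 7.8% of all genes. Uncentred, the 10 min difference of *HSP12* was 0.22 with overlapping arrays, while at 60 min the HMF arrays stayed below. Because the differences oppose each other, their mean was only -0.50 ± 0.22 (adjusted p = 0.207).

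*HSP30*, whose product in the plasma membrane restrains the proton pump Pma1, stood lower at 60 and 120 min than at 10 min in both cultures. With HMF its log2 ratios were 1.39 and 1.26 at 10 min, then 1.16 and -2.54 at 30 min, later -1.70 and -1.46 at 60 min and -0.97 at 120 min, against 1.84 and 1.06, 2.54 and 0.36, -1.19 and -0.11, and -1.28 in control. The groups overlapped at 10 and 30 min, and at 60 min both HMF arrays lay below both control arrays. The mean difference was -0.72 ± 0.62 (adjusted p = 0.536, 95% interval -2.12 to 0.69), with residual SD of 1.30 between replicates. Its relatives *YRO2* and *MRH1*, which encode membrane proteins of the same family, had mean differences of -0.11 ± 0.31 (adjusted p = 0.876) and -0.24 ± 0.18 (adjusted p = 0.480).

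**Figure D2:**
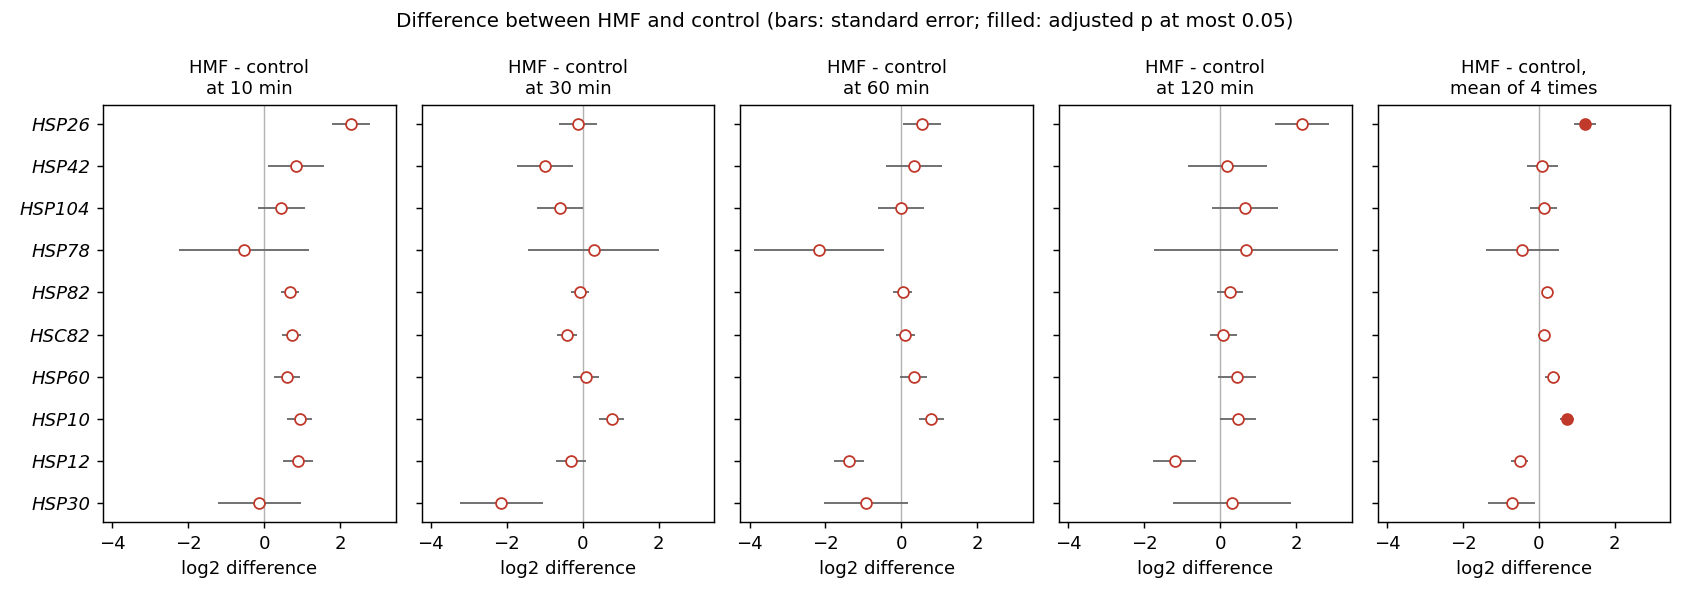
Difference between HMF and control in centred log2 (horizontal axis) for each chaperone gene at 10, 30, 60 and 120 min and in the mean of the 4 times, with bars of 1 moderated standard error and filled points at an adjusted p of at most 0.05. Filled points are HSP26 (1.21) and HSP10 (0.74) in the mean, and none at a single time.

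At 10 min most of the chaperone genes stood high with HMF, and their standing against control depended on the centring. On the centred scale a level of 2-fold over 0 min was reached with HMF by 8 of the 10, all but *HSP78* and *HSP10*, and in control 2 of the 10 were, *HSP26* and *HSP30*. Over all genes these shares were 8.69% with HMF and 3.21% in control. On the uncentred scale the same 8 were 2-fold above 0 min with HMF, but 9 were so in control, all but *HSP10*, where the shares of all genes were 11.1% and 28.8%. The array medians before centring were 0.28 and 1.29 in control replicates 1 and 2 at 10 min, and 0.56 and -0.32 with HMF. The uncentred control level at 10 min thus leaned on replicate 2. Both HMF arrays lay above both control arrays in 6 of the 10, *HSP26*, *HSP82*, *HSC82*, *HSP12*, *HSP60* and *HSP10*, and in 19% of all genes. Uncentred, *HSP26* alone of the 10 kept this and *HSP30* had both HMF arrays below both control arrays, and these shares were 1.22% and 29.5% of all genes. The difference had a median of 0.71 over the 10 genes with 8 above 0 (50.4% of all genes). On the uncentred scale its median was 0.038 with 6 above 0, against a median of -0.66 over all genes with 719 of 6387 above 0. After quantile normalization it was 0.38 with 8 above 0, against 3149 of 6387. None passed the adjusted limit at 10 min, where 2.14% of all genes did, and unadjusted p was at most 0.05 in 4, all higher (*HSP26*, *HSP82*, *HSC82* and *HSP10*), a rule met by 6.92% of all genes in that direction.

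At the later times the number of the 10 genes with a difference above 0 changed from one time to the next. On the centred scale *HSP10* and *HSP60* stayed above 0 and *HSP12* below it at each of these times. At 30 min 3 of the 10 differences lay above 0 (median -0.22), as did 48.2% of all genes, and none passed, where 2.57% of all genes passed. *HSP10* alone of the 10 had both HMF arrays above both control arrays, as 21.7% of all genes did, and *HSC82* alone had both below, as 22.1% did. Uncentred, 1 of the 10 differences at 30 min lay above 0 (median -0.56), as did 1561 of all 6387 genes (median -0.37). Both HMF arrays were then below both control arrays in 4 genes (*HSP42*, *HSP82*, *HSC82* and *HSP12*) and above in none. The shares of all genes were 39% below and 6.61% above. At 60 min 6 lay above 0 (median 0.067, 51.4% of all genes), none passed against 0.971% of all genes, and HMF arrays were all above control in *HSP26*, *HSP42* and *HSP10* (24.2% of all genes) and all below in *HSP12* and *HSP30* (23.6%). Uncentred, 7 lay above 0 at 60 min (median 0.31), as did 4602 of all 6387 genes (median 0.26). *HSP60* joined the genes with both HMF arrays above (31.2% of all genes), and those with both below stayed the same (8.2%). At 120 min 9 of the 10 single HMF arrays were above the single control array, all but *HSP12*, as were 51.6% of all genes, and none passed against 0.204%. Without control replicate 2 at 30 min the median at 30 min was -0.85.

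Within the HMF cultures the value at 30 min was below that at 10 min in all 10 genes on both the centred and the uncentred scale, and in 9 of 10 after quantile normalization. Of all 6387 genes, 3210, 3639 and 3305 lay below on these scales. The median difference, 30 min minus 10 min, was -1.22, against a median near 0 over all genes, and unadjusted p was at most 0.05 in 6 of the 10 (*HSP26*, *HSP42*, *HSP104*, *HSP82*, *HSC82* and *HSP12*), as 7% of all genes did in that direction. None passed after adjustment, where 0.313% of all genes did. *HSP26* had a difference of -2.46 ± 0.51 (adjusted p = 0.0626), and it passed with either block (adjusted p = 0.0341 and 0.0402). *HSC82* had -1.27 ± 0.26 (adjusted p = 0.0626, and 0.0413 with one block over all times), *HSP82* -1.01 ± 0.25 (adjusted p = 0.0968) and *HSP42* -1.71 ± 0.74 (adjusted p = 0.306, and 0.0402 with separate blocks for the times). In the control cultures the same difference lay between -1.68 in *HSP78* and 0.12 in *HSP42*, and unadjusted p was at most 0.05 in 0 of the 10, against 1.71% of all genes. Uncentred, the median was -1.31 with HMF and -0.50 in control, against -0.088 and -0.40 over all genes. The uncentred control difference lay below 0 in all 10 genes, as in 5705 of all 6387. Whether HMF and control differed in this step is the difference between the 10 and 30 min responses, which no gene on the array passed (unadjusted p was at most 0.05 in 7.22% of them, including *HSP26* and *HSC82*). For 120 min minus 60 min with HMF the largest differences but for *HSP78* were 2.06 ± 0.62 in *HSP26* and 1.27 ± 0.49 in *HSP12*, both against a single array at 120 min (adjusted p = 0.999 each, where 0.0157% of all genes passed). In control the same step was 0.45 ± 0.62 in *HSP26* and 1.09 ± 0.49 in *HSP12*, also with a single array at 120 min.

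Replicate spread differed widely among the 10 genes. The residual SD was 0.21 for *HSP82* and 0.23 for *HSC82*, 0.34 for *HSP10*, 0.36 for *HSP60*, 0.43 for *HSP12*, 0.57 for *HSP26*, 0.70 for *HSP104*, 0.85 for *HSP42*, 1.30 for *HSP30* and 2.04 for *HSP78*, against a median of 0.34 over all genes. At 30 min replicate 1 was above replicate 2 in both treatments in 5 of the 10 genes (*HSP26*, *HSP42*, *HSP104*, *HSP12* and *HSP30*) and in 31.9% of all genes.

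**Figure D3:**
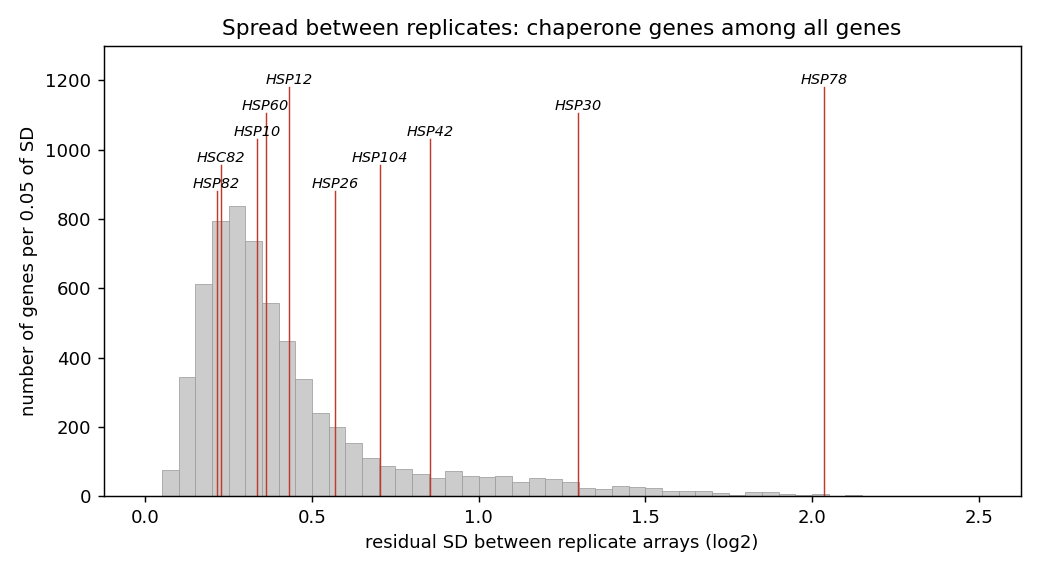
Histogram of the residual SD between replicate arrays (horizontal axis, log2) of all 6387 genes, as the number of genes per 0.05 of SD, with the 10 chaperone genes as vertical lines. HSP82 (0.21) and HSC82 (0.23) lie below the median of 0.34, and HSP78 (2.04) lies in the far tail.

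The chaperones work with partners, which were taken from lists of known genes. Among 18 cytosolic Hsp70 genes and partners of Hsp70 and Hsp90, 5 were higher and 1 lower with HMF in the mean of the 4 times, with a median of 0.24, against 5.09% and 6.25% of all genes. The largest was *SSA4*, the heat-inducible Hsp70 gene, with a mean difference of 1.18 ± 0.21 (adjusted p = 0.0084). The next were *CPR6*, an Hsp90-bound prolyl isomerase gene (0.98 ± 0.15, adjusted p = 0.0046), and *HCH1*, a gene for an Hsp90 activator (0.87 ± 0.14, adjusted p = 0.0051). *AHA1*, which encodes the related activator of the Hsp90 ATPase, had 0.69 ± 0.18 (adjusted p = 0.0455) and *SBA1*, the p23 co-chaperone gene, 0.66 ± 0.13 (adjusted p = 0.0136). *PPT1*, which encodes the Hsp90-bound phosphatase, was lower by -0.59 ± 0.12 (adjusted p = 0.0148). On the uncentred scale none of these 6 passed, with differences of 0.47 to 0.99 in the 5 and -0.78 in *PPT1*.

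*SSA4* resembled *HSP26* at 10 min. Its log2 ratios were 3.95 and 3.24 at 10 min, then 0.70 and 0.39 at 30 min, later 0.55 and 0.89 at 60 min and 1.16 at 120 min with HMF, against 1.21 and 0.26, 0.60 and 0.09, 0.00 and 0.20, and 0.11 in control. At 10 min *SSA4* (2.86 ± 0.38, adjusted p = 0.0156) and *CPR6* (1.60 ± 0.27, adjusted p = 0.0273) were higher and *PPT1* lower (-1.19 ± 0.21, adjusted p = 0.0313). Uncentred none of these 3 passed (adjusted p = 0.0876, 0.463 and 0.131). The 18 differences had a median of 0.69, or 0.022 uncentred, where the median over all genes was -0.66. At 30, 60 and 120 min none of the 18 passed, with medians of 0.040, 0.43 and 0.38.

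Several of these calls ended when one array was left out. *AHA1* kept its call in the mean without HMF replicate 1 or 2 or control replicate 1 at 10 min, and lost it with any of the other 9 replicated arrays left out (adjusted p = 0.0575 to 0.101). At 10 min *SSA4* lost its call without either HMF array or control replicate 2 of that time (adjusted p = 0.053 to 0.0825). *CPR6* did so without either HMF array or control replicate 1 at 10 min and without any of the 4 arrays at 60 min (0.052 to 0.12), and *PPT1* without any one of the 12 replicated arrays (0.0508 to 0.14).

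Of 8 genes of the mitochondrial Hsp70 system and the matrix proteases, 1 was higher and none lower. This was *PIM1*, which encodes the Lon protease of the matrix, with a mean difference of 0.79 ± 0.12 (adjusted p = 0.0039), and it also passed at 10 min (1.03 ± 0.21, adjusted p = 0.0474) and at 30 min (1.06 ± 0.21, adjusted p = 0.0404). Uncentred it passed in none of these, with 0.60 in the mean (adjusted p = 0.458), 0.36 at 10 min (0.719) and 0.72 at 30 min (0.892). With a separate block it missed the limit at both times (adjusted p = 0.0539 and 0.0543), as it did without any one array at 30 min (0.0554 to 0.174) and, at 10 min, without any replicated array other than the HMF arrays of 30 min (0.0809 to 0.157). The list's median was 0.026, and at 60 and 120 min none passed.

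The 23 general stress genes, such as those of trehalose and glycogen metabolism, had a median mean difference of -0.38. None was called higher and 1 lower, *HOR7*, which encodes a small stress-induced protein (-0.62 ± 0.13, adjusted p = 0.0174, and 0.0531 without control replicate 2 at 60 min). Uncentred it did not pass (-0.81, adjusted p = 0.261). At single times none of the 23 passed. The median difference was 0.26 at 10 min with 20 of 23 above 0, -0.92 at 30 min with 1 of 23, -0.91 at 60 min with 3 of 23 and -0.12 at 120 min with 8 of 23. On the uncentred scale the 10 min median was -0.41 with 2 of 23 above 0, so its direction rests on the centring, whereas those at 30 and 60 min were -1.26 and -0.67. Over all genes the uncentred medians were -0.66, -0.37 and 0.26 at these times, and 719 of 6387 lay above 0 at 10 min.

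The regulators themselves did not pass in the mean or at any time. The mean difference was 0.45 ± 0.31 for *HSF1* (adjusted p = 0.426), 0.20 ± 0.16 for *MSN2* (adjusted p = 0.499) and 0.056 ± 0.22 for *MSN4* (adjusted p = 0.916). *HSF1* had 1.54 and 0.25 at 10 min, then 0.82 and -0.32 at 30 min, later 0.27 and -0.05 at 60 min and 0.32 at 120 min with HMF, against 0.50 and -0.74, -0.51 and -0.49, -0.16 and -0.58, and 0.74 in control, and replicate 1 lay above replicate 2 at 10, 30 and 60 min with HMF.

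**Figure D4:**
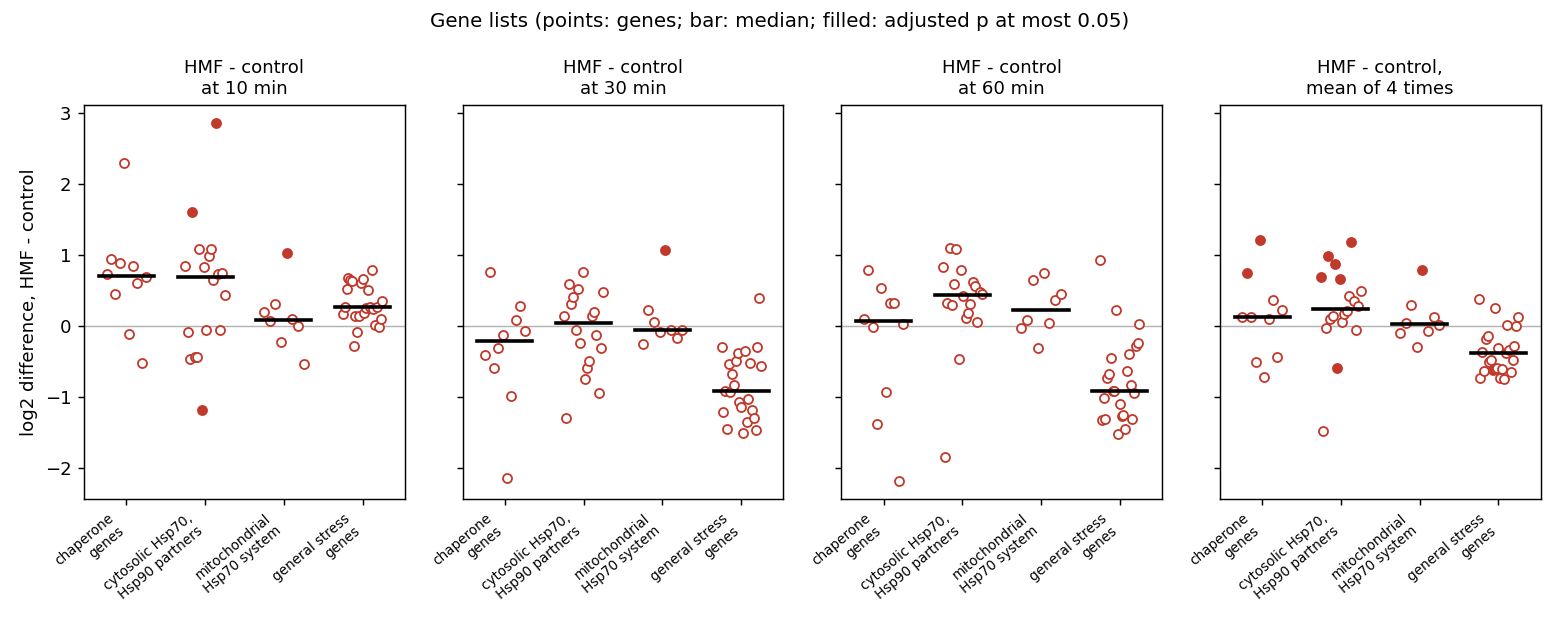
Difference between HMF and control in centred log2 (vertical axis) for single genes (points) at 10, 30 and 60 min and averaged over 4 times. Lists are 10 chaperone genes, 18 cytosolic Hsp70 genes and Hsp70 or Hsp90 partners, 8 mitochondrial Hsp70 system genes and 23 general stress genes. Bars are list medians and filled points have an adjusted p of at most 0.05; the general stress median is 0.26 at 10 min and -0.92 and -0.91 at 30 and 60 min.

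The genes with the most similar courses were sought over the 14 centred arrays by the root mean square difference, given as a description. For *HSP26* they were *SSA4* (0.61), *HAB1* (0.69) and *TMA17* (0.80), where the median over all genes was 1.72. For *HSP82* they were *HSC82* (0.16), *MNR2* (0.18) and *ADP1* (0.19), with a median of 0.69. For *HSP12* they were *NNR2* (0.51), the uncharacterized YHL012W (0.53) and *OM14* (0.53), with a median of 0.99, and for *HSP60* they were YIR044C (0.17), *MAL33* (0.18) and *TCP1* (0.19), with a median of 0.82. Genes of small amplitude lie near one another by this measure, as those beside *HSP82* and *HSP60* do.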

How the data were processed

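Deposited values were 1 log2 ratio of test to 0 min RNA for each of 6387 open reading frames on 14 arrays, with no missing value. Per the labels and the methods, the authors scanned the slides with GenePix, subtracted background from median foreground, checked the spots by eye and scaled each slide on a spike-in before using GeneSpring. How the duplicate spots were combined and the genome build are not given in the sources used here, and the files pair no probe sequence with a gene. No intensities were analysed here, signal over background is unknown, and the number of arrays limits precision. Symbols came from a RefSeq gene table, which matched 5840 of the 6387 systematic names.

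Arrays were centred on their medians, and limma 3.58.1 in R 4.3.3 fitted 1 mean to each of the 8 groups (6 residual and 2.53 prior degrees of freedom), so that the single arrays at 120 min are assumed to vary like the others. P values were adjusted by Benjamini-Hochberg over all 6387 genes within a contrast, at a limit of 0.05. The scripts were first tested on simulated data of this design.

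The 10 genes and the 54 genes of the 5 other lists were chosen with earlier results of these data known. Named genes were all 10, the regulators, the *HSP30* relatives *YRO2* and *MRH1*, at most the 3 largest and 3 smallest called mean differences of each list, and for 4 genes the 3 most similar courses. The labels call same-numbered arrays biological replicates and state no pairing. Replicate 1 minus replicate 2 correlated between HMF and control across genes at 0.31, 0.28 and 0.17 at 10, 30 and 60 min, all above 0.1, and the replicate number was therefore also used as a block. Other alternatives were uncentred values, quantile normalization, an unmoderated two-factor test, robust eBayes, no 120 min arrays and each of the 12 replicated arrays left out. The two-factor test takes treatment and time from the 2-way ANOVA of the methods. Unlike theirs, it was read contrast by contrast, without their intensity filter, and adjusted unless said otherwise.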

Additional observations from a re-analysis of the deposited data

Results flagged for a closer look

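For 2 of the 10 genes the difference between HMF and control ran in opposite directions at 2 times, with no overlap between the arrays at either. In *HSP12* the HMF arrays lay above the control arrays at 10 min (0.89) and below them at 60 min (-1.38), and the 2 differences were 2.27 apart in log2. In *HSC82* they lay above at 10 min (0.73) and below at 30 min (-0.41), which is 1.13 apart. Such a reversal between 2 of the 3 replicated times was found in 7.8% of all genes, and the interaction of treatment and time passed for neither (unadjusted p = 0.0158 and 0.0755, adjusted p = 0.90 and 1 in limma). On the uncentred scale the arrays overlapped at 10 min in both genes, with differences of 0.22 in *HSP12* and 0.058 in *HSC82*. Groups of 2 arrays are too small to look for single outlying arrays.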

How the results depend on the processing

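In the mean of the 4 times 2 of the 10 genes passed. The count was 0 on the uncentred scale, 1 after quantile normalization (*HSP26*), 0 with the two-factor test of the methods after adjustment (*HSP26* adjusted p = 0.0685, *HSP10* 0.0628), 1 without the 120 min arrays (*HSP10*), and 0 to 2 with one array left out. At 10 min none passed, 1 did with either replicate block (*HSP26*), and 0 to 1 with one array left out. For 30 min minus 10 min with HMF, 2 passed with one block over all times (*HSP26* and *HSC82*) and 2 with a separate block (*HSP26* and *HSP42*). The blocks changed no other call of the 10 genes. Of all 6387 genes, 724 passed in the mean, against 118 uncentred and 523 after quantile normalization. With the two-factor test 688 did, and without the 120 min arrays 754. At 10 min 137 of all genes passed, against 456 with one block over all times and 286 with separate blocks. For 30 min minus 10 min with HMF 20 of all genes passed, against 169 and 173 with these blocks. A rule modelled on the criterion of the methods took an unadjusted p of at most 0.05 in each contrast and 2-fold from 0 min in a group. With it the counts at 10, 30, 60 and 120 min were 4, 1, 2 and 1 with limma and 4, 0, 1 and 1 with the two-factor test. In the same order they were 2 and 3 for the 10 min minus the 30 min difference, 6 and 4 for 30 min minus 10 min with HMF, 2 and 1 for 120 min minus 60 min with HMF, and 2 and 1 for the interaction. How many of all genes met this rule was not counted, so these counts show nothing particular to the 10 genes. The median difference of the 10 genes at 10 min was 0.71, and 0.038 uncentred, where the median over all genes was -0.66. The median at 30 min lay between -0.85 and -0.068 with one array left out. Among the partners, quantile normalization ended the calls of *AHA1* (adjusted p = 0.0707) and *PPT1* (0.118) in the mean, of *CPR6* (0.24), *PPT1* (0.349) and *PIM1* (0.293) at 10 min and of *PIM1* (0.0944) at 30 min, and one block over all times added *HCH1* (0.0377) and *SBA1* (0.0465) at 10 min. *AHA1* also missed the limit in the two-factor test (0.0765) and without the 120 min arrays (0.0776). No called difference changed its sign under any alternative run. The cause of these changes was not tested. Only 2 arrays per group, and 1 at 120 min, limit every value given here.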
